A study of Mus musculus with 30 samples.

Results

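The 13 mouse heart libraries were ranked by Myl7, the gene for the regulatory myosin light chain of atrial muscle, and the 4 libraries with the highest Myl7 level were set against the 4 with the lowest. Together these are 8 of the 13 hearts and of the 29 libraries analysed in the series, and the other 5 hearts lay between the sides. The mice were C57BL/6J males injected with the adeno-associated virus vector AAV8, encoding F11, the gene of coagulation factor XI, or GFP (green fluorescent protein) as control. AAV8 given to adult mice mainly transduces liver. All groups, the GFP controls included, ate a high-fat diet (HFD) with l-NAME, a nitric oxide synthase inhibitor, for 7 weeks, and tissue was taken at 15 weeks of age. There were 7 F11 hearts and 6 GFP hearts, and 8 GFP libraries of white adipose tissue served as the other tissue. RNA came from tissue samples, and the labels do not say how the hearts were cut, nor that each library is a separate mouse, so p-values here measure the spread between these samples.

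The working mammalian heart has atria and ventricles whose muscle cells carry different sets of contractile proteins and channels. Atrial muscle uses the light chains Myl7 and Myl4 where ventricular muscle uses Myl2 and Myl3, and it stores atrial natriuretic peptide in secretory granules. The atria also hold the sinoatrial pacemaker, and relative to their muscle they have much lining, epicardial cover and connective tissue. A library made from a whole or trimmed heart therefore carries a small atrial share beside a large ventricular one. In such bulk RNA, fewer cells of a type and less RNA per cell cannot be told apart.

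The promoters of 4 atrial genes that are described next, and of the ventricular Myl2 as a contrast, are shown as the 250 bases before the transcription start, 5′ to 3′ on the gene's strand, from the RefSeq promoter table of GRCm38.p6. Capitals mark 3 short words searched on both strands, which did not overlap each other here: the T-box word AGGTGT, the GATA words AGATAA and TGATAA, and the NK2 homeobox word TNAAGTG. Sln, which encodes sarcolipin, has no entry and is named only.
Myl7, chr11:5898783-5899032, minus strand: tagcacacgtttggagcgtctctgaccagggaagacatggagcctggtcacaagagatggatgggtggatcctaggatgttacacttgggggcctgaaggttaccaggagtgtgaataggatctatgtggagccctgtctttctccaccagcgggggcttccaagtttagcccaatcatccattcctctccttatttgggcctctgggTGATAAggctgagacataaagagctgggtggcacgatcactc
Myl4, chr11:104550413-104550662, plus strand: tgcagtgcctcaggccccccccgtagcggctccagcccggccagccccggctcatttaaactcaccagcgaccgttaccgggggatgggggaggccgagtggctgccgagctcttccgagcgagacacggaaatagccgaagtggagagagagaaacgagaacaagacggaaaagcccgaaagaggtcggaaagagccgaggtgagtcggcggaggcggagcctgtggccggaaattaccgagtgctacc
Nppa, chr4:148000472-148000721, plus strand: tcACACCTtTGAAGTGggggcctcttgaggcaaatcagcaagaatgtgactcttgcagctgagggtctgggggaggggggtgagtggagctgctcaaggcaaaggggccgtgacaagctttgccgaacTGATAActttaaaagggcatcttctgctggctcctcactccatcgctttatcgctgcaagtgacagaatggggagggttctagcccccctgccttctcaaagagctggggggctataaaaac
Bmp10, chr6:87428744-87428993, plus strand: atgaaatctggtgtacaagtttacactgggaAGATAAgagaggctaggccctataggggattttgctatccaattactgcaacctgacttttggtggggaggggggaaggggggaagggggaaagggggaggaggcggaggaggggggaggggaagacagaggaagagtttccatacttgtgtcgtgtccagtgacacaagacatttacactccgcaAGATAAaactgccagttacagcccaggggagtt
Myl2, chr5:122092474-122092723, plus strand: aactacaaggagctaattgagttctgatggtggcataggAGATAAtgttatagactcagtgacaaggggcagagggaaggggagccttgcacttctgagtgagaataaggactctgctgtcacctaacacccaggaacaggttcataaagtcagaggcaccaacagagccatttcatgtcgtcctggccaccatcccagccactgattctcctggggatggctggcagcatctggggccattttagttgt
Nppa held 1 T-box, 1 GATA and 1 NK2 word, Bmp10 held 2 GATA words, Myl7 held 1 GATA word and Myl4 held none. Myl2 held 1 GATA word too, so the words did not separate these atrial promoters from the ventricular one. Over all 32851 promoter windows of this length, 11.8% held the T-box word, 16.6% a GATA word and 10.1% the NK2 word. A match is a description of the letters and not a site.

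Levels are given as CPM, the counts of a gene per 1e6 counts of its library. Myl7 stood at 340.0 CPM in L38, 329 in L1, 222 in L6 and 180.0 in L31, the Myl7-high hearts, against 76.6 in L36, 34.5 in L39, 25.2 in L35 and 0.378 in L8, the Myl7-low hearts. The high side held 2 F11 hearts (L38 and L31) and 2 GFP hearts (L1 and L6), and the low side 3 F11 hearts (L36, L39 and L35) and 1 GFP heart (L8). Between the sides lay L5 at 161, L2 at 113, L33 at 102, L40 at 101 and L9 at 77.9 CPM, of which L33 and L40 were F11 hearts. The last library inside the high side, L31, and the first outside, L5, differed little, and L36 inside and L9 outside the low side were almost level. The sides were selected on these Myl7 values, which support nothing. L8 stood far below every other heart, with 11 counts of Myl7.

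Total counts per library, in units of 1e6, were 28.2 to 30.3 in Myl7-high hearts and 28.1 to 33.02 in Myl7-low hearts, and 25.8 to 33.02 over all 13. Transcripts of the mitochondrial genome took 31.6 to 33.6% of counts in Myl7-high hearts and 33.02 to 34.4% in Myl7-low hearts. Ventricular markers were high in all 13 libraries, Myl2 at 3094 to 3993 CPM, while the atrial genes Myl7, Myl4 and Sln were at or below 1.44 CPM in L8 alone. L8 and L40 also carried more globin than the other hearts, with Hbb-bs, a beta-globin gene, at 1709 and 1445 CPM against 228 to 425 CPM elsewhere. L2 carried liver transcripts, with Alb (albumin) at 119 CPM against at most 4.09 CPM elsewhere, in L8.

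Nearly every gene on the atrial list stood higher on the Myl7-high side, in step with Myl7, while the ventricular list did not separate the sides. Of 14684 genes tested, 10.7% were higher in all 4 Myl7-high than in all 4 Myl7-low hearts (no overlap), and this was so for 18 of the 19 tested atrial genes other than Myl7. Their log2 ratios of mean CPM, with 0.1 CPM added to each, were 0.53 to 4.85. The median of the 19 tested atrial genes, Myl7 left out, was 2.16 against 0.08 for all genes tested. The sides were chosen within the same libraries, so these ratios are a description with no test.

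The contractile and calcium-handling members came first. Myl4, the essential light chain of atrial muscle, had 533, 552, 392 and 288 CPM in the Myl7-high hearts L38, L1, L6 and L31, against 124, 54.9, 40.1 and 1.44 CPM in the Myl7-low hearts L36, L39, L35 and L8. The sides were far apart, and the mean was 441 ± 125 CPM in Myl7-high and 55.1 ± 51.1 CPM in Myl7-low hearts (SD, n = 4 each), 8.003-fold. Sln encodes sarcolipin, a small inhibitor of the sarcoplasmic calcium pump. In the same library order it had 111, 104, 76.6 and 52.0 CPM in Myl7-high hearts, against 21.6, 9.83, 6.63 and 0.241 CPM in Myl7-low hearts, 8.98-fold. Mybphl, a myosin-binding protein of the atria and conduction tissue, had 75.3, 74.6, 46.4 and 37.1 CPM in Myl7-high hearts, against 15.1, 7.34, 5.33 and 0.275 CPM in Myl7-low hearts, 8.32-fold. No pair of sides overlapped for these 3 genes, and the order of libraries was almost that of Myl7.

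Secreted products followed. Nppa, which encodes atrial natriuretic peptide, had 1389, 1615, 962 and 826 CPM in Myl7-high hearts, against 349, 133.4, 204 and 33.7 CPM in Myl7-low hearts, 6.65-fold. Pam, the enzyme that amidates peptide hormones and a major membrane protein of atrial granules, averaged 1310 ± 268 CPM in Myl7-high and 567 ± 117 CPM in Myl7-low hearts (SD, n = 4 each), 2.31-fold. Unlike Sln, Pam kept a high floor, with 418 CPM in L8. Dkk3, a secreted glycoprotein of the Dickkopf family, was 8.74-fold higher in Myl7-high hearts, with 64.6 to 173 CPM against 1.24 to 25.4 CPM in Myl7-low hearts. Hamp, which encodes the iron hormone hepcidin, had 1.70 to 5.99 CPM in Myl7-high and 0 to 0.392 CPM in Myl7-low hearts. A count of 0, as Hamp had in L8, allows up to 0.103 CPM there, for counting error only.

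Channels were graded more weakly, with Fgf12 as the exception. Kcnj3 and Kcnj5 encode the subunits of the acetylcholine-gated potassium channel, and they were 1.87-fold and 1.45-fold higher in Myl7-high hearts. Kcnj3 had 111 to 170.0 CPM in Myl7-high and 70.5 to 85.8 CPM in Myl7-low hearts. Gja5, the gap-junction protein connexin 40, had 9.64 to 16.1 CPM in Myl7-high and 4.79 to 6.65 CPM in Myl7-low hearts, 2.38-fold. Fgf12, an intracellular modulator of sodium channels, was graded as steeply as the light chains, with 11.001 to 22.4 CPM in Myl7-high and 0.331 to 5.11 CPM in Myl7-low hearts, 6.94-fold. Kcna5, a voltage-gated potassium channel on the same list, had 13.6 to 27.1 CPM in Myl7-high hearts and 11.9 to 24.9 CPM in Myl7-low hearts, and the sides overlapped.

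**Figure D1:**
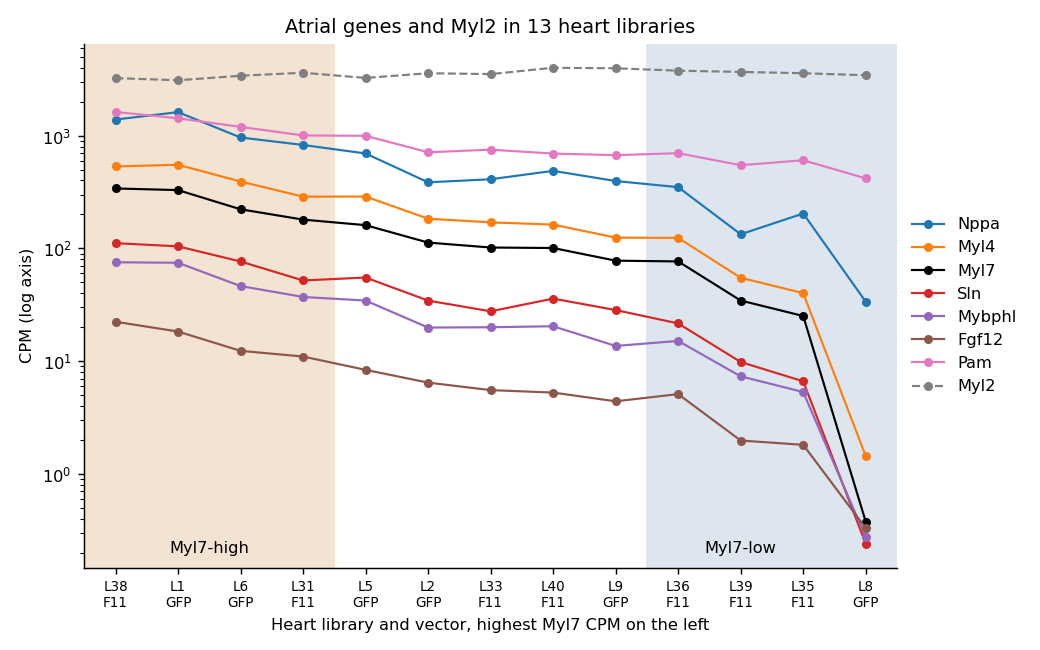
CPM on a log axis of 7 atrial genes and the ventricular gene Myl2 (dashed) in the 13 heart libraries, ordered by Myl7 CPM with the highest on the left. Points are single libraries, the Myl7-high side is shaded on the left and the Myl7-low side on the right. Myl4, Sln, Mybphl and Fgf12 run close to parallel to Myl7 over the 12 hearts other than L8, where Myl7 drops further than they do, Nppa and Pam fall less, and Myl2 stays between 3094 and 3993 CPM.

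The proportion between atrial genes was close to constant. Leaving out L8, whose Myl7 rests on 11 counts, the Myl4 to Myl7 ratio of CPM was 1.57 to 1.79 over 12 hearts, although Myl7 itself differed from 25.2 to 340.0 CPM. Mybphl to Myl7 was 0.175 to 0.227, Sln to Myl7 0.264 to 0.365 and Fgf12 to Myl7 0.0521 to 0.0721. Pam did not keep to a ratio, with 4.33 to 24.03, highest where Myl7 was lowest. In L8 the ratios were higher, at 3.82 for Myl4, 0.727 for Mybphl, 0.636 for Sln and 0.875 for Fgf12. These ratios compare counts not divided by transcript length and do not say which gene has more transcripts.

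Bmp10, a cardiac member of the bone morphogenetic protein family that in the adult mouse is made mainly by right atrial muscle, broke the proportion. It had 329, 576, 145.4 and 128 CPM in the Myl7-high hearts L38, L1, L6 and L31, against 16.9, 22.6, 0.485 and 0.378 CPM in the Myl7-low hearts L36, L39, L35 and L8, 29.2-fold between the means. In the hearts between the sides it had 202 CPM in L5, 83.5 in L33, 98.8 in L40, 98.8 in L9 and 0.360 in L2. L2 thus had almost no Bmp10 at 113 CPM of Myl7, and L35 almost none at 25.2 CPM. Set against its median over 12 hearts without L8, 0.766, the Bmp10 to Myl7 ratio was 0.00319 in L2 and 0.0193 in L35.

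L2 was compared with the other hearts gene by gene after its Bmp10 value was seen. Of the genes higher by more than 2-fold on the Myl7-high side, 117 had an ordinary symbol and a mean of at least 1 CPM on 1 side. Their ratio to Myl7 in L2, over the median ratio of the other hearts without L8, was below 0.25 for 4 genes (3.42%), and its median was 0.884. These 4 were Bmp10 at 0.00389, Cd207 (langerin) at 0.0491, Aldh3b3 at 0.168 and Mlana (melan-A) at 0.224. Cd207 had 0.0327 CPM in L2, against 0.0671 to 4.39 CPM in the hearts other than L2 and L8. A count of 0 allows up to 0.0981 CPM in L2, for counting error only. Aldh3b3 had 0.131 CPM and Mlana 0.294 CPM in L2, so the ratios of Cd207, Aldh3b3 and Mlana rest on few counts. Dkk3 stood at 0.525 and Cacna2d2 at 0.489 on the same measure. L2 is also the library with liver transcripts, and their part in these values was not tested.

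**Figure D2:**
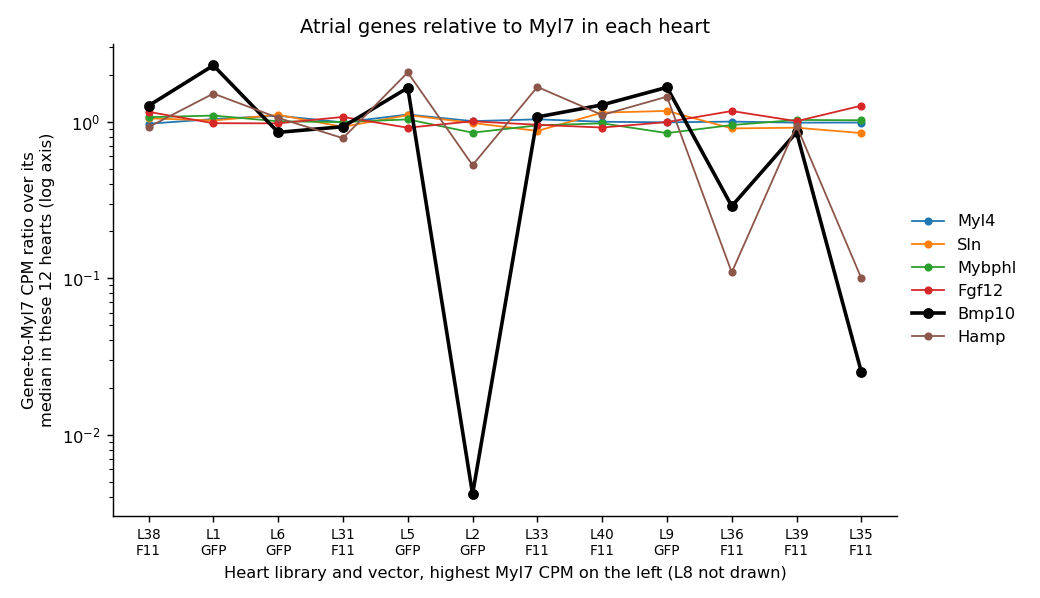
Ratio of a gene's CPM to Myl7 CPM in each of 12 hearts (L8 not drawn), divided by the median ratio of those hearts, on a log axis, ordered by Myl7 CPM with the highest on the left. The lines of Myl4, Sln, Mybphl and Fgf12 stay near 1, while Bmp10 (thick black) drops in L2, L35 and, less, in L36, and Hamp drops in L36 and L35.

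The ventricular list did not separate the sides. None of its 13 members separated them in either direction. Its median log2 ratio was -0.03, below the 0.08 of all genes tested. With TMM scaling of the same 8 libraries the median of all genes was -0.007, so whether a list reads as level depends on the scaling. Myl2, the ventricular regulatory light chain, averaged 3333 ± 221 CPM in Myl7-high and 3608 ± 142.7 CPM in Myl7-low hearts (SD, n = 4 each). Myl3, the ventricular essential light chain, averaged 2222 ± 141.9 CPM in Myl7-high and 2340.0 ± 76.2 CPM in Myl7-low hearts. Myh7, the slow myosin heavy chain, had 238 to 381 CPM in Myl7-high hearts, against 450.4, 435, 729 and 199 CPM in the Myl7-low hearts L36, L39, L35 and L8. L35 was high and L8 low within their own side. Irx4 and Hey2, transcription factors of ventricular identity, had log2 ratios of -0.01 and -0.08, and Kcnip2, a subunit of the fast transient outward channel, had -0.12. The 17 genes of the sarcomere that all cardiomyocytes share also held none that separated the sides, with a median log2 ratio of -0.01, and Myh6, the main myosin heavy chain of both chambers in the adult mouse, had 23405 to 28897 CPM in Myl7-high and 22154 to 29047 CPM in Myl7-low hearts.

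Over all genes the difference ran almost wholly one way. With no overlap, 1564 genes (10.7%) were higher and 44 (0.3%) lower on the Myl7-high side, and 1% were higher by more than 2-fold, 41 genes of them by more than 4-fold, while none was lower by more than 2-fold (0%; 1 gene with the TMM scaling of the same libraries). Most of the 1564 differed little, with a median log2 ratio of 0.25. The split between higher and lower depended on the scaling. With library sizes scaled by TMM, the trimmed mean of M-values, and the same 8 libraries, 654 genes were higher and 316 lower, so that 67.4% of the separating genes were higher, against 97.3% with column sums, while 131 genes were higher by more than 2-fold without overlap, all of them among the more-than-2-fold genes of the column sums. Re-ranked on TMM-scaled values, where L9 took the place of L36, 486 were higher and 191 lower (71.8%), and 105 were higher by more than 2-fold. Without L36 the count of higher genes was 1033, and without L31 the count of lower genes was 96.

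By the largest log2 ratio, the genes beside those on the atrial list were Cd207, Cilp2, Sphkap, Mlana, Tmem163 and Cacna2d2. Cilp2, a matrix protein of the cartilage intermediate layer family, had 30.2, 21.5, 16.2 and 14.3 CPM in the Myl7-high hearts L38, L1, L6 and L31, against 5.6003, 2.35, 1.57 and 0.103 CPM in the Myl7-low hearts L36, L39, L35 and L8. Tmem163, a zinc transporter, had 9.57 to 19.9 CPM in Myl7-high and 0.190 to 3.72 CPM in Myl7-low hearts. Sphkap, an anchor of protein kinase A, had 1.38 to 5.64 CPM in Myl7-high and 0.0687 to 0.606 CPM in Myl7-low hearts, and Cd207 had 1.06 to 4.39 CPM in Myl7-high and 0 to 0.178 CPM in Myl7-low hearts. For each of these genes L8 was the lowest heart, and 37 of the more-than-2-fold genes were below 10% of the Myl7-high mean there.

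The genes whose CPM ranked most like Myl7 over the 13 hearts were Fgf12 (Spearman rho 0.995), Myl4, Stard10, Rxfp1 and Olfm1 (0.989 each), followed by Lmntd1, Sds, Tbc1d1, Camk1d and Scrn1 (0.984 each). Stard10 is a phospholipid transfer protein, Rxfp1 the relaxin receptor and Tbc1d1 a Rab GTPase-activating protein of glucose transport. Tbc1d1 had 33.4 to 65.8 CPM in Myl7-high and 13.02 to 18.8 CPM in Myl7-low hearts. These hearts share depth, and L8 takes the last or nearly the last rank for most of them, so rho is a description of the 13 libraries. Over all genes tested, 95 had a rho above 0.9 and none below -0.9, the lowest being -0.846. Among genes of at least 1 CPM with an ordinary symbol, Mlip, a muscle protein that binds lamin, was least alike (rho -0.835), with 65.5 to 69.1 CPM in Myl7-high and 72.8 to 74.9 CPM in Myl7-low hearts, a log2 ratio of -0.14.

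Lists of other cells that the atria hold were also read against the 10.7% of all genes. Of the sinoatrial and conduction list 5 of 13 tested members were higher on the Myl7-high side and 1 was lower. Cacna2d2, a calcium channel subunit, had 18.8, 40.2, 14.2 and 10.7 CPM in the Myl7-high hearts L38, L1, L6 and L31, against 3.54, 4.89, 2.37 and 1.13 CPM in the Myl7-low hearts L36, L39, L35 and L8, 7.04-fold. Cacna1d, a calcium channel of pacemaking, was 2.42-fold higher. Shox2, a transcription factor of the sinoatrial node, had 1.03 to 2.77 CPM in Myl7-high and 0.447 to 0.891 CPM in Myl7-low hearts. L1 was the highest heart for Cacna2d2, Cacna1d and Shox2. Hcn4, the main pacemaker channel, had 11.9 to 18.8 CPM against 10.5 to 13.3 CPM and overlapped, and Tbx3, a repressor of the working muscle program in the conduction system, was lower, with 10.9 to 13.48 CPM in Myl7-high and 13.55 to 15.7 CPM in Myl7-low hearts, sides that only just missed each other.

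Of the mesothelial and epicardial list, which marks the outer cover of the heart, 7 of 13 tested members were higher and none lower, with a median log2 ratio of 1.53. Upk3b, a uroplakin of mesothelium, had 3.49, 7.65, 5.5996 and 2.13 CPM in the Myl7-high hearts L38, L1, L6 and L31, against 1.78, 0.249, 0.848 and 0.447 CPM in the Myl7-low hearts L36, L39, L35 and L8. Lrrn4, a mesothelial membrane protein, had 1.195 to 2.77 CPM in Myl7-high and 0.137 to 0.575 CPM in Myl7-low hearts, and Gpm6a, a membrane glycoprotein, 3.33 to 7.62 CPM in Myl7-high and 0.962 to 2.33 CPM in Myl7-low hearts. Wt1, an epicardial transcription factor, did not separate the sides, with its highest value, 9.67 CPM, in L8 and 3.76 to 4.79 CPM in Myl7-high hearts.

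Of the endocardial and valve list 3 of 12 were higher. Npr3, the clearance receptor for natriuretic peptides and a marker of endocardium, had 42.1 to 84.1 CPM in Myl7-high and 16.1 to 36.3 CPM in Myl7-low hearts, and Plvap, a diaphragm protein of endothelium, was 2.59-fold and Tmem108 2.985-fold higher. Of the fibroblast list 4 of 12 were higher by small factors, among them Dcn (decorin) at 312 to 382 CPM against 262 to 296 CPM. Of the smooth muscle list none of 9 separated the sides, and of the macrophage list 1 of 13, near the background. The myosin light chain list gave 4 of 10 beside Myl7, of which Myl1 and Myl9 were 2.23-fold and 2.01-fold higher, and Myl1 had 28.1 to 48.3 CPM in Myl7-high and 12.3 to 19.4 CPM in Myl7-low hearts.

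Transcription factors of the heart gave 7 of 22 higher and 1 lower, the lower one being Tbx3, which is also on the sinoatrial list. Of the higher ones, Tbx5, Nr2f1 and Nr2f2 are also on the atrial list and were counted there. Tbx5, which drives atrial and conduction gene programs, had 57.5, 55.5, 44.7 and 37.9 CPM in the Myl7-high hearts L38, L1, L6 and L31, against 26.7, 25.1, 20.7 and 23.6 CPM in the Myl7-low hearts L36, L39, L35 and L8. Nr2f1 and Nr2f2, the COUP-TF factors of atrial identity, were 1.63-fold and 1.499-fold higher, and L8 kept 67.0% and 76.3% of the Myl7-high mean. Gata5 had 0.819 to 1.43 CPM in Myl7-high and 0.101 to 0.398 CPM in Myl7-low hearts, while Gata4, its cardiac relative, had 95.5 to 117 CPM against 87.3 to 103 CPM and overlapped.

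**Figure D3:**
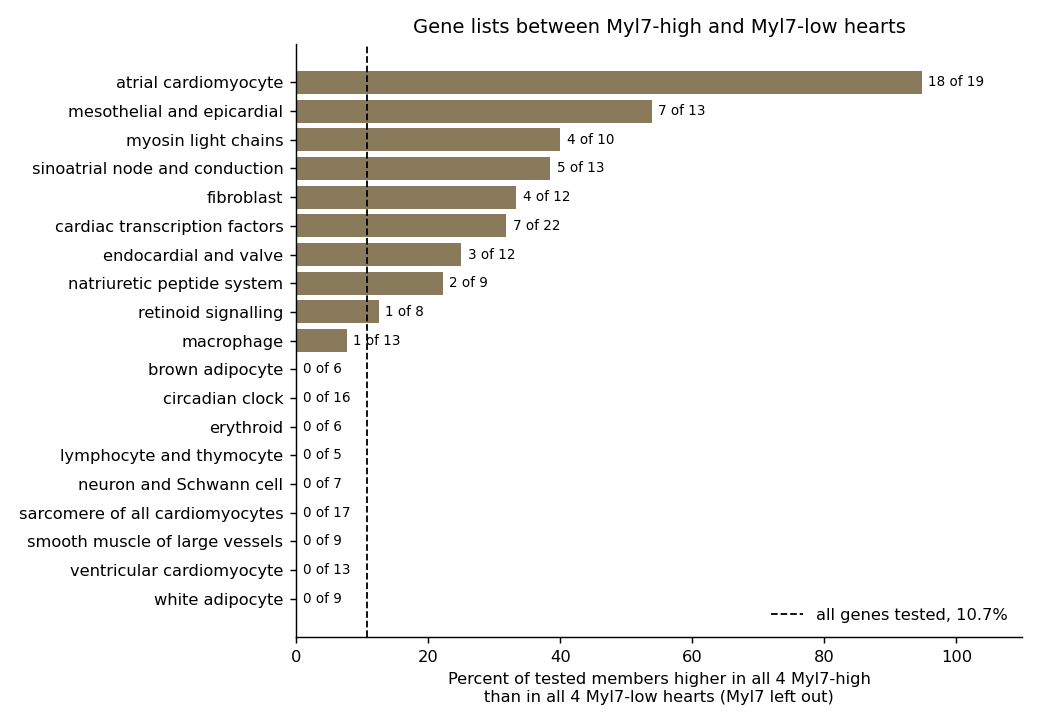
Percent of the tested members of each gene list that were higher in all 4 Myl7-high than in all 4 Myl7-low hearts, with the count beside each bar, Myl7 left out and lists with fewer than 5 tested members not drawn. The dashed line is the 10.7% of all genes tested. The atrial bar reaches 18 of 19, mesothelial 7 of 13, and the ventricular, sarcomere, smooth muscle, white adipocyte and circadian clock bars are at 0.

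Markers of other tissues that a heart library can hold differed in whether they separated the sides. None of 9 tested white adipocyte genes separated them, although 7 had a positive log2 ratio and the median was 1.19. Adipoq, the adipocyte hormone adiponectin, had 0.930, 2.57, 0.717 and 0.106 CPM in the Myl7-high hearts L38, L1, L6 and L31, against 0.168, 0.428, 0.273 and 0.0344 CPM in the Myl7-low hearts L36, L39, L35 and L8, and 2.06 CPM in L5 between the sides. L1 and L5 also had the highest Ucp1, the uncoupling protein of brown fat, at 6.63 and 4.43 CPM. The summed CPM of the 6 erythroid genes was 695 to 1080.0 in Myl7-high and 573 to 4192 in Myl7-low hearts, and all 6 overlapped. In the brown adipocyte list, Zic1, a transcription factor, was lower on the Myl7-high side with 0.173 to 0.219 CPM against 0.347 to 0.436 CPM. The summed CPM of 9 hepatocyte genes was 4.90 to 12.9 in Myl7-high hearts, 2.13 to 7.90 in Myl7-low hearts and 192 in L2. Ahsg, a secreted plasma glycoprotein and the 1 hepatocyte gene that passed the filter, was higher on the Myl7-high side, with 3.62 to 11.04 CPM against 0.996 to 2.63 CPM. Of the skeletal muscle list 2 of 3 tested members were higher, Myl1 and Mylpf, which are also on the light chain list, and its summed CPM was 29.8 to 51.5 in Myl7-high and 13.8 to 22.1 in Myl7-low hearts. Within F11 hearts 3 of 3 were higher and within GFP hearts 0 of 3. Lung epithelium genes summed to at most 0.584 CPM in any of these hearts. The part of these tissues in the differences between sides was not tested.

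The 44 lower genes were small in effect. Among those of at least 1 CPM with an ordinary symbol the lowest log2 ratio was -0.46, for Zfp459, with 0.638 to 1.07 CPM in Myl7-high and 1.13 to 1.67 CPM in Myl7-low hearts. Glul, glutamine synthetase, averaged 364 ± 11.4 CPM in Myl7-high and 457 ± 43.3 CPM in Myl7-low hearts (SD, n = 4 each). Cacna1c, the pore of the cardiac L-type calcium channel, averaged 346 ± 19.6 CPM in Myl7-high and 389.6 ± 5.74 CPM in Myl7-low hearts, and Tacc2, a centrosomal protein abundant in muscle, 649.6 ± 68.5 CPM in Myl7-high and 792 ± 92.9 CPM in Myl7-low hearts. Cacna1c and Tacc2 had the opposite sign within GFP hearts, at 0.11 and 0.07.

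Because the sides mixed the vectors unevenly, the 3 highest and 3 lowest Myl7 hearts were also set apart within each vector. In F11 hearts these were L38, L31 and L33 against L36, L39 and L35, and in GFP hearts L1, L6 and L5 against L2, L9 and L8. All 18 atrial genes that separated the full sides were higher without overlap within F11 hearts, where 14.2% of all genes were, and within GFP hearts, where 11% were. Of these hearts, 5 of 6 F11 and 3 of 6 GFP hearts are also on the full sides, so nothing is read from the count of 18: of the 1564 genes higher on the full sides, 888 were higher within F11 and 507 within GFP hearts. Myl4 had log2 ratios of 2.18 within F11 and 1.99 within GFP hearts, Nppa 1.93 and 2.005, Mybphl 2.24 and 2.19 and Tbx5 0.83 and 0.90. Fgf12 had 2.09 and 1.78, and Bmp10 3.75 and 3.21. Kcna5 had 0.34 within F11 and -0.50 within GFP hearts.

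Over all genes, within F11 hearts 2086 genes were higher and within GFP hearts 1622, and 397 were in both, 19.0% of the F11 list and 24.5% of the GFP list. Of the more-than-2-fold genes on the full sides, which were 1% of the 14684 genes tested, 91 were among these 397. Many of the hearts compared within vectors are also on the full sides, which chose the more-than-2-fold genes. Nothing is therefore read from the count of 91. The mesothelial list gave 3 of 13 within F11 and 9 of 13 within GFP hearts, 2 of them in both, and 1 more was lower within GFP hearts. The fibroblast list gave 4 of 12 within F11 and 0 of 12 within GFP hearts, and the macrophage list 8 of 13 higher within F11 and 0 of 13 within GFP hearts, where 2 were lower. No ventricular gene was higher within either vector, and 1 was lower within F11 and 4 within GFP hearts. For lower genes, 239 within F11 (1.63%) and 725 within GFP hearts (4.94%) had 8 in common. Differences between the vectors in these counts were not tested.

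**Figure D4:**
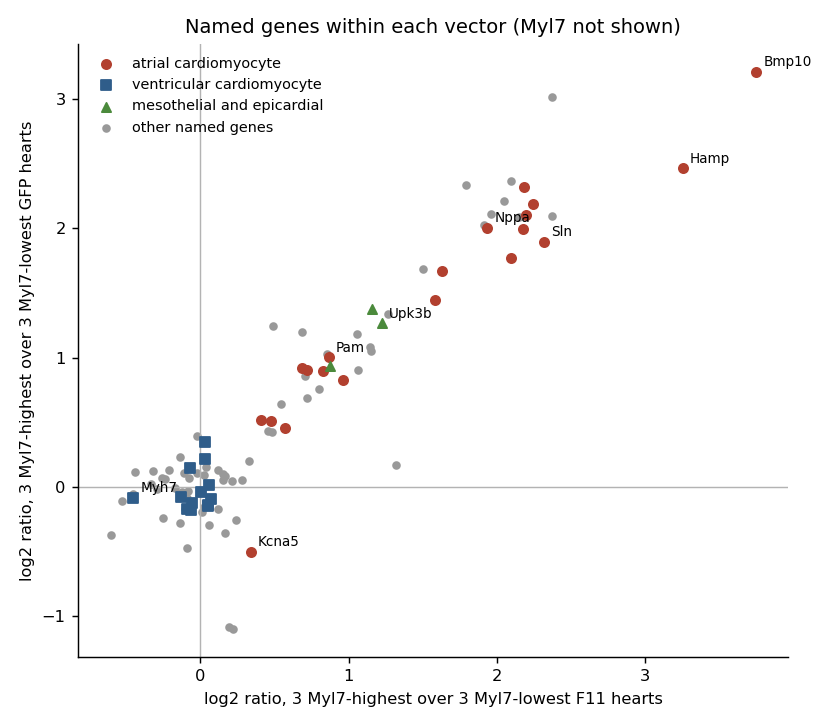
Log2 ratio of mean CPM, with 0.1 CPM added, of the 3 Myl7-highest over the 3 Myl7-lowest F11 hearts (x axis) and GFP hearts (y axis) for the named genes except Myl7, which chose the libraries. Points are genes: circles atrial, squares ventricular, triangles mesothelial and small grey points the other named genes. Atrial genes other than Kcna5 have positive ratios on both axes, up to Bmp10 at 3.75 and 3.21, and ventricular genes lie between -0.45 (Myh7, F11 hearts) and 0.35 (Kcnd2, GFP hearts).

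The vector contrast was not used to rank the libraries, so genes could be tested in it, though the separating genes came from these hearts. It asks whether coagulation factor XI delivered by the vector changed these genes in the heart. Atrial transcripts did not pass the test between F11 and GFP hearts. Myl7 had a lowest, median and highest value of 25.2, 101 and 340.0 CPM in 7 F11 hearts, against 0.378, 136.7 and 329 CPM in 6 GFP hearts. The groups overlapped over their whole range, and the log2 fold change of F11 over GFP was -0.27 (SE 0.85, adjusted p = 0.935 by the quasi-likelihood test of edgeR with Benjamini-Hochberg adjustment, as for all adjusted p-values here). Other atrial genes had log2 fold changes of -0.87 to 0.20, of which Myl4 had -0.37 (adjusted p = 0.914) and Nppa -0.31 (adjusted p = 0.917). With a standard error of 0.85 on the log2 scale for Myl7, a difference of that size would not be detectable between these hearts.

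Over all genes tested, 128 passed between F11 and GFP hearts (0.872%), 76 higher (0.518%) and 52 lower (0.354%) in F11, with 119 higher when L40 was left out. None of the 1564 genes higher on the Myl7-high side and none of the 44 lower ones was among them by edgeR. At an unadjusted p under 0.05 there were 102 of 1564 (6.52%), against 12.5% of all genes, and 4 of 44. DESeq2 called 373 of all genes (2.54%) and 8 of the 1564 (0.512%), and limma voom called 130 of all genes (0.885%) and 1 of the 1564. These calls among the 1564 were all lower in F11, and neither tool called any of the 44. The 1564 and the 44 were chosen for a gap between sides that each hold both vectors, so they vary within a vector. That choice can itself lower the number of calls, so the few calls among them are not read as a lack of vector effect. Of the more-than-2-fold genes, 130 had a negative fold change (88.4%, median -0.35), against 52.5% of all genes, and the low side holds 3 of its 4 hearts from F11, so these signs share libraries with the choice of sides. Myh6, which did not separate the sides, was higher in F11 hearts, with 26614, 27992 and 29047 CPM as the lowest, median and highest against 22154, 22721 and 27019 CPM in GFP hearts (log2 fold change 0.30, SE 0.04, adjusted p = 0.00192).

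With log2 of Myl7 as a covariate, the fit called 160 genes (1.09%), 125 of them also called without it, 35 gained and 3 lost. This covariate is 1 straight slope per gene over all 13 hearts and does not match hearts. No F11 heart was near L8, with Myl7 at 0.378 CPM in L8 and at least 25.2 CPM in F11 hearts. Among the 1564 genes 10 were called, all lower in F11, and 5 of these were above 2-fold between the sides: Upk3b, Gpm6a, Nkain4, Dpp4 and Cyp2s1. Upk3b had a lowest, median and highest value of 0.249, 1.51 and 3.49 CPM in F11 hearts, against 0.447, 3.41 and 7.65 CPM in GFP hearts. The groups overlapped over most of their range. As examples from hearts of similar Myl7, Upk3b was 3.49 CPM in the F11 heart L38 against 7.65 in the GFP heart L1, and 1.51 CPM in the F11 heart L33 against 3.07 in the GFP heart L2. Its log2 fold change was -1.18 (SE 0.22, adjusted p = 0.0144) with the covariate and -1.23 (SE 0.54, adjusted p = 0.374) without it.

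These calls changed when single hearts were left out, from either vector. Of the 1564 genes, 18 were called without L38 and 15 without L2, against 10 with all hearts, and 5 without L36, 5 without L39 and 4 without L9. Without L8 the covariate fit called 1 of the 10, Upk3b, at -1.05 (SE 0.20, adjusted p = 0.0375), and over all genes 33 higher and 34 lower in F11. Without L1 it also called only 1 of the 1564 genes. Upk3b was called in 13 of 13 such fits, each leaving out 1 heart, at adjusted p of 0.00154 to 0.0446, and Gpm6a in 6. These fits share most of their hearts, and the genes were picked for their call with all hearts. Repeated calls are therefore not a replication. With the other atrial markers as the covariate in place of Myl7, Upk3b was called at -1.05 (adjusted p = 0.0378), while 4 of the 10 were not: Gpm6a (adjusted p = 0.112), Nkain4 (0.0707), Ctsh (0.0629) and Cdon (0.0573). All 13 tested mesothelial genes had a negative fold change in F11 hearts without the covariate and with it, at medians of -1.08 and -0.98. Without the covariate 52.5% of all genes were negative. With it 3 of the 13 were called, against 1.09% of all genes. Of the 13, 7 were among the genes higher on the Myl7-high side, and the low side holds 3 F11 hearts and 1 GFP heart. These signs too therefore share libraries with the choice of sides. Of the white adipocyte genes, 6 of 9 had a negative fold change without the covariate, with a median of -1.10, none was called without it and 1 with it, and Adipoq had a median of 0.273 CPM in F11 and 1.17 CPM in GFP hearts. Their part in the Upk3b difference was not tested. In GFP adipose tissue the median of Upk3b was 30.9 CPM.

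**Figure D5:**
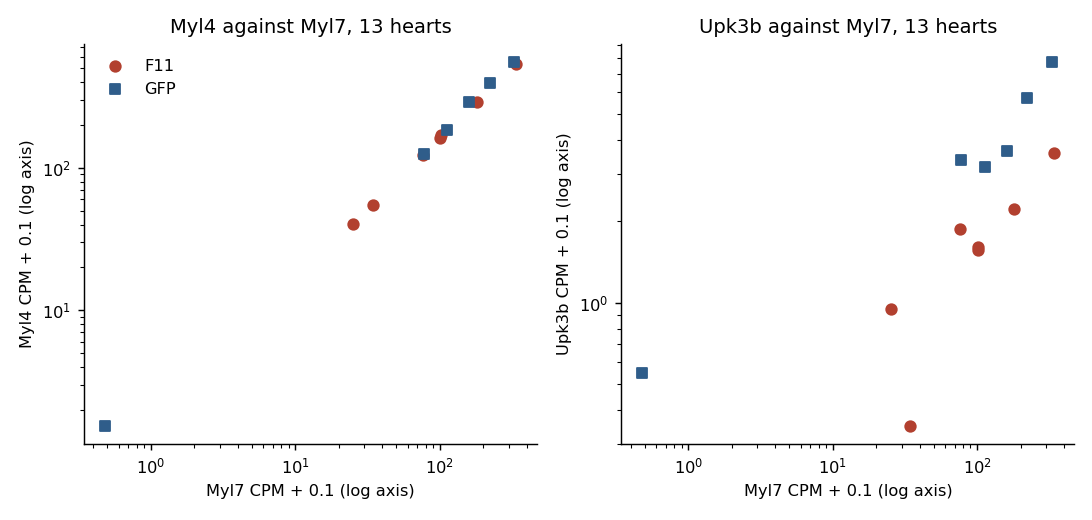
CPM of Myl4 (left) and Upk3b (right) against Myl7 CPM in 13 hearts, both axes logarithmic with 0.1 CPM added, F11 hearts as circles and GFP hearts as squares. Myl4 lies on 1 line for both vectors, while Upk3b in F11 hearts, at most 3.49 CPM, lies under GFP hearts of like Myl7, with the GFP heart L8 alone at the lower left.

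Another measure that the ranking did not use was the contrast of GFP heart with GFP adipose tissue. Most atrial genes were higher in heart, while the other genes that followed Myl7 were mixed. Of 17 atrial genes tested there beside Myl7 that separated the sides, 14 were higher in heart and none lower. Of all genes in that fit, 37.7% were higher and 43.6% lower in heart. The list was chosen for a part of the heart, so a higher level in heart is not read as support for following Myl7. Myl4 averaged 17.5 CPM in adipose tissue and had a log2 fold change of heart over adipose of 4.77, Tbx5 of 6.41 and Kcnj5 of 6.22. Gja5 and Nr2f2, which vessels and stroma also use, had -0.14 and -0.12 (adjusted p = 0.475 and 0.454). A single adipose library, L140, carried heart transcripts, with Myh6 at 3839 CPM and Myl7 at 18.2 CPM, against 0.106 to 0.355 CPM of Myl7 in the other 7. Without it 12 of 15 were higher in heart and none lower, where 40.2% of all genes were higher. Myl7, Sln and Mybphl no longer passed the filter, and the log2 fold changes were 5.23 for Myl4, 8.56 for Tbx5 and 8.86 for Kcnj5.

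Of the more-than-2-fold genes, 128 were tested between the tissues, and 46.1% were higher and 28.1% lower in heart, against 40.9% and 39.5% of the 14357 genes tested in both fits. Over all 1564 genes the shares were 36.03% higher and 45.9% lower in heart. Npr3 was among the lower ones, with a log2 fold change of heart over adipose of -4.35, as were Upk3b at -2.22 and Lrrn4 at -2.25, while Cacna2d2, at 5.87, was higher in heart.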

How the data were processed

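Total RNA of mouse heart and white adipose tissue was made into libraries with an mRNA kit and sequenced, per the labels' protocols. The values deposited by the authors are estimated counts per gene, not scaled. The submitters' processing notes name kallisto 0.46 and the build GRCm38.p6. Which annotation and strand settings were used is not stated, so reads of overlapping or antisense genes may be mixed. Symbols here came from GENCODE M21. The table held 36558 gene IDs, of which 702 had no symbol. The labels name 7 GFP hearts, of which 6 were analysed here.

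CPM was the count over the column sum, times 1e6. Estimated counts were rounded and fitted with edgeR 4.0.16 in R 4.3.3 (filterByExpr, TMM, robust quasi-likelihood test, two-sided, Benjamini-Hochberg adjusted p under 0.05). DESeq2 1.42.0 and limma 3.58.1 were alternatives, as were other scalings, filters, side sizes, covariates and leaving out each heart. The 14684 genes of the vector fit were compared between sides. Tested on simulated data over 14566 genes, the vector fit recovered 36, 66, 94 and 100% of genes changed 1.25, 1.5, 2 and 4-fold, with 4 false calls among 148. The changed genes were picked at random and each gene was drawn independently. These shares do not apply to the atrial genes, which vary together and widely within a vector.

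Counts of any 2 hearts of 1 vector differed beyond sampling noise (chi-square per degree of freedom at least 3.36), so none was treated as a repeat. The ranking rule, the 22 gene lists and the rule for named genes were chosen with earlier results of these data known. That rule names atrial and ventricular list members, up to 4 separating members of each other list or else its 2 highest, the 15 largest and 15 smallest log2 ratios, and the 10 genes most and 5 least alike to Myl7 by Spearman rho. Other genes were chosen after their values were seen. Totals of 25.8 to 33.02 (1e6) per heart set how precisely genes of low level are measured, and limits for counts of 0 cover counting error only. Some genes that the rule names are not reported here.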

Additional observations from a re-analysis of the deposited data

Results flagged for a closer look

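Within 1 vector, 10 of the 68 groups of atrial and ventricular gene values held a heart that stood apart by Dixon's gap test, which chance does in about 1 in 20 groups. The F11 heart L38, which has the highest Myl7, stood above the other F11 hearts for 7 atrial genes: Bmp10 at 329 CPM, Sbk2 at 39.98 CPM, Sbk3 at 116 CPM, Dkk3 at 142.1 CPM, Pam at 1620 CPM, Kcnj3 at 170.0 CPM and Gja5 at 16.1 CPM. These genes share 1 library and are not independent. The GFP heart L1 stood above the other GFP hearts for Bmp10 at 576 CPM. In the ventricular list single F11 hearts stood high for Myh7 at 729 CPM in L35 and Irx3 at 35.9 CPM in L40.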

How the results depend on the processing

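The counts of genes higher and lower on the Myl7-high side, 1564 and 44 with column sums, moved with the choices as follows. They were 486 and 191 with TMM-scaled library sizes, 654 and 316 with TMM and the same 8 libraries (chosen after seeing the data), 478 and 191 with DESeq2 size factors, 2411 and 279 with 3 hearts a side and 585 and 11 with 5 a side. The lower count was 82 without mitochondrial transcripts in the sum, 96 when ranked by the other atrial markers, 725 within GFP hearts, 239 within F11 hearts and 92 with no filter. Leaving out each heart in turn gave 1033 to 1564 higher, 42 to 96 lower and 105 to 161 higher by more than 2-fold, a count that was 81 within F11 hearts and within 1.5 times of the reported one under the other alternatives. The log2 ratio changed sign within GFP hearts for Ctnnd2 (0.11), Tnip3 (0.12), Tacc2 (0.069), Muc6 (0.021), Tnfrsf26 (0.059), Cacna1c (0.11) and Raph1 (0.069), and within F11 hearts for Ceacam1 (0.0093). Between F11 and GFP hearts DESeq2 called 223 higher and 150 lower against 76 and 52, and leaving out each heart gave 51 to 119 and 36 to 64. With Myl7 as a covariate (88 and 72) leaving out each heart, chosen after seeing the data, gave 33 to 127 and 34 to 95. The causes were not tested. Counts between heart and adipose tissue stayed within 1.5 times in all 4 alternatives run. No paired analysis was possible because the replicate numbers of the groups are not shared.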
